A study of Homo sapiens with 6 samples.

Results

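The peaks described here lie at 10 genes of the ETS family of transcription factors other than GABPA itself, namely ELK1, ELK3, ELK4, ELF1, ELF2, ELF4, ETV3, ETV6, ETS1 and ETS2. A peak was taken when its summit lay inside the RefSeq span of a gene on GRCh38 or within 1 kb of it, which gave 9 of the 8541 peaks of 3 GABPA ChIP-seq lists, 2 of 1660 in the B1 knockout, 5 of 3857 in the ROSA26 and 2 of 3024 in the parental list. The cells were A-375, an established human melanoma line. In the cells of the B1 knockout library, exon 2 of GABPB1, the gene of the GABP B1 subunit, was knocked out and TERT, which encodes the enzymatic part of telomerase, was knocked in afterwards, a step the sample titles call a rescue. In the cells of the ROSA26 library the knockout was made at the ROSA26 locus as a control, and the parental library came from cells without a knockout. Per the labels, edited cells were sorted and cloned, so each edited line is 1 clone, and the B1 knockout, the TERT knock-in and the clone cannot be told apart. Each condition has 1 ChIP library and 1 input, so no difference between conditions has a replicate check or a test, and the inputs were not analysed here on their own.

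GABP joins GABPA, the ETS protein that binds DNA, to a B subunit that activates transcription. The ETS family shares a DNA-binding domain that recognises a GGAA core, and related members can occupy the same promoters, so genes that encode ETS factors are themselves of interest as positions of GABPA. The 10 genes fall into subfamilies with different roles. ELK1, ELK3 and ELK4 are ternary complex factors, which bind with SRF at immediate early genes and are phosphorylated by ERK. ELF1, ELF2 and ELF4 form the ELF subfamily, studied mainly in blood cells. ETV3 and ETV6 act mainly as repressors, and ETS1 and ETS2 are activators that respond to ERK. A-375 carries an activating BRAF mutation, which keeps the ERK pathway on.

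GABPA peaks were listed at 3 of the 10 genes, at the start of ETV3, at the start and within the body of ELK4, and at an internal start and within the body of ELF2. The B1 knockout list held ETV3 and ELK4, the ROSA26 list held ETV3, ELK4 and ELF2, and the parental list held ETV3 and ELF2. As background, 10.2% of the 19974 protein-coding genes had a B1 knockout peak by the same rule (95% exact Clopper-Pearson interval 9.75 to 10.6), 20.8% a ROSA26 peak (20.3 to 21.4) and 17.2% a parental peak (16.7 to 17.7). A peak in any of the 3 lists was found for 21.1% of protein-coding genes. Among the 12372 genes at least as long as the shortest of the 10 (15085 bp) the shares were 10.5, 22.7 and 18.4%. The peaks were selected on the position of their summits in these same lists, so the counts at the ETS genes, 2, 3 and 2 of 10, are a description and nothing is read from their distance to these shares. The 7 other genes had no peak in any list.

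The 9 peaks merged into 5 regions. The ETV3 region was listed in all 3 libraries, the ELK4 start in the B1 knockout and ROSA26 libraries, and the internal start of ELF2 in the ROSA26 and parental libraries. A second region in ELK4 and a second region in ELF2 were listed in ROSA26 alone, as were 22.5% of all 3936 merged regions. Of the 2 regions found in both controls, ETV3 and the ELF2 start, 1 had a B1 knockout peak, against 54.9% of 2963 such regions over the genome. A position without a listed peak lies below the limit of the peak caller and is not shown to be unbound.

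**Figure D1:**
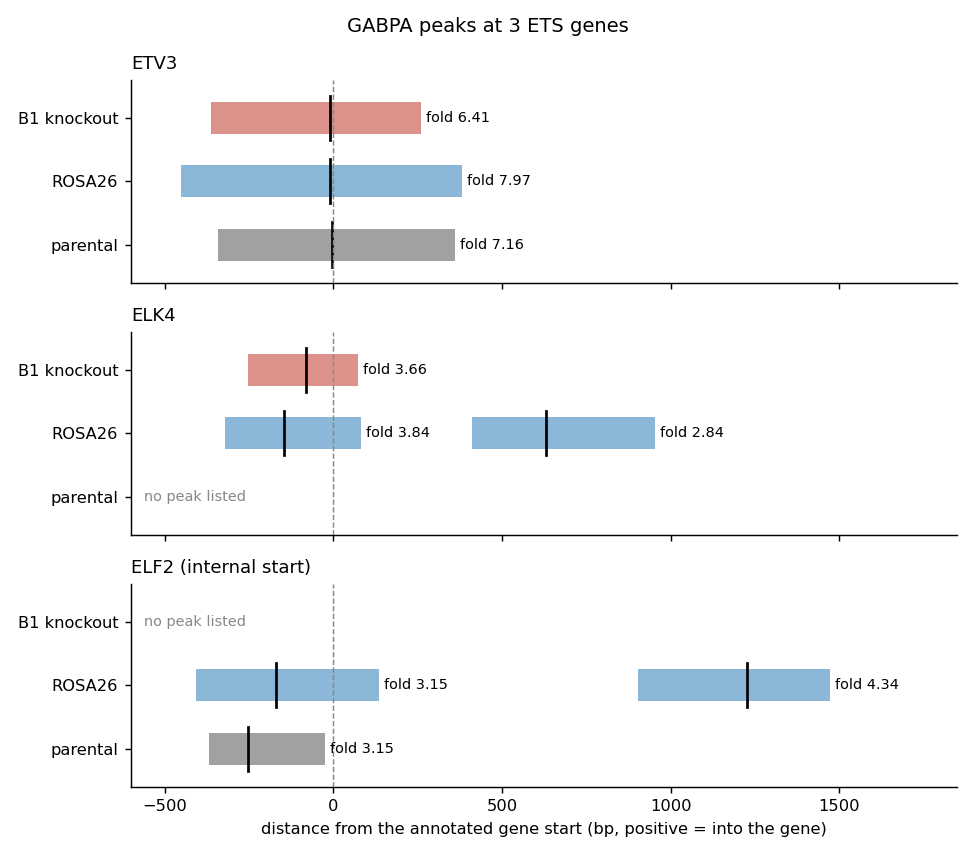
Peaks at ETV3, ELK4 and the internal start of ELF2 by distance from the annotated start in bp, with 1 row per library, a bar for the extent of each peak and a black tick at its summit. ETV3 carries a summit within 11 bp of its start in the 3 libraries, whereas ELK4 has no parental peak and ELF2 no B1 knockout peak.

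The sequences before the starts of these 3 genes are shown because their letters can be set beside the summits, with that of ELK1 as a member without a peak. They were copied from the RefSeq promoter table of GRCh38.p14 on the strand of the gene, which is the minus strand for the 4 genes, and the last base is the one before the start. Capitals mark matches to CGGAAG or GGAAGT on either strand, and a match is a run of letters, not a shown binding site.
ETV3 promoter (chr1:157138396-157138645): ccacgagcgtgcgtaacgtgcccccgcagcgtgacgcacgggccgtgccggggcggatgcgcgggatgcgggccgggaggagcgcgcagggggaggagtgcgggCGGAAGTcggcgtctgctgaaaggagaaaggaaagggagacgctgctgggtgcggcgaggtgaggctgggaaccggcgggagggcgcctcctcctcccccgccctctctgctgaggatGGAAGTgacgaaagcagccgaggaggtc
ETV3 start (chr1:157138381-157138410): gcagccgaggaggtcACTTCCtgctggggt
ELK4 promoter (chr1:205632012-205632261): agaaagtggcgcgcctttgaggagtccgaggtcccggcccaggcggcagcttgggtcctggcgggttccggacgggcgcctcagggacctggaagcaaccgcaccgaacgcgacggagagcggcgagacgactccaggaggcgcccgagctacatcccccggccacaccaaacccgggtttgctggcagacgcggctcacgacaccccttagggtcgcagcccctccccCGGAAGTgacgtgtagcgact
ELF2 promoter, internal start (chr4:139084225-139084474): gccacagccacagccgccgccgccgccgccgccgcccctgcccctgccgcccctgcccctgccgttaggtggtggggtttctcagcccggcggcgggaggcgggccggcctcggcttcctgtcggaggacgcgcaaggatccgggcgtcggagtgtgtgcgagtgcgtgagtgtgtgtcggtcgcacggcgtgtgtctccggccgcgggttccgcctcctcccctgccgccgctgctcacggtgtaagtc
ELK1 promoter (chrX:47650605-47650854): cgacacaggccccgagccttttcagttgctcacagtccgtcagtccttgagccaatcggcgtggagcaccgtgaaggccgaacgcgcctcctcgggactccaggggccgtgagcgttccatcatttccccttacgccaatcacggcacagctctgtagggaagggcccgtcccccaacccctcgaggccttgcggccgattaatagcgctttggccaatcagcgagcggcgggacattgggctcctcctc

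ETV3 (chromosome 1, 157121191 to 157138395, gene ID 2117), the repressor, held the strongest of these peaks in each list. Fold enrichment at the summit, here and throughout, is the authors' own ratio of the pileup to the local background, taken to have 1 added to each. At ETV3 the fold was 6.41 in the B1 knockout, 7.97 in the ROSA26 and 7.16 in the parental list. The −log10 p of the peak was 50.3, 123 and 82.9 in the same order. By −log10 p it ranked 554 of 1660 in the B1 knockout list, 1019 of 3857 in the ROSA26 list and 1053 of 3024 in the parental list, so that 66.6%, 73.6% and 65.2% of the peaks of its own list were weaker. The summits fell within 7 bp of each other, at 157138406, 157138405 and 157138399, which is 11, 10 and 4 bp upstream of the start. The peaks were 622, 836 and 704 bp wide, and no other protein-coding gene had an end within 1 kb.

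The numbers of reads over the ETV3 summit, recovered from the fold and p-value, were 114 (95% exact Poisson interval 94.0 to 137) in the B1 knockout, 226 (197 to 257) in the ROSA26 and 190 (164 to 219) in the parental library. The local background was 16.9, 27.5 and 25.5 reads. The library background, taken as the most common local background among the peaks of a list, was 9.86 reads in the B1 knockout, 14.2 in the ROSA26 and 15.4 in the parental library. The intervals cover counting error only. For scaling between libraries, here and below, each library background was taken after a library scale factor. It was then 9.11 in the B1 knockout, 14.2 in the ROSA26 and 13.3 in the parental library. Scaled down to this background of the B1 knockout, the ROSA26 and parental ETV3 peaks had a −log10 p of 78.9 and 57.6, beside the 50.3 listed in the B1 knockout library. No error between cultures can be set on these values.

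The ETV3 start carries 3 matches to GGAAGT. The match nearest the start, ACTTCC on the printed strand, begins at the start itself, and the next one upstream lies 28 to 23 bases before it. Both extend to GGAAGTGAC, and the B1 knockout summit lies between them, 8 bases from the edge of the first and 9 from that of the second. The ROSA26 summit lies 7 and 10 bases and the parental summit 1 and 16 bases from the same edges. The other match, which a C precedes so that it also gives the only CGGAAG of this window, lies 145 to 140 bases before the start and at least 129 bases from each summit.

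**Figure D2:**
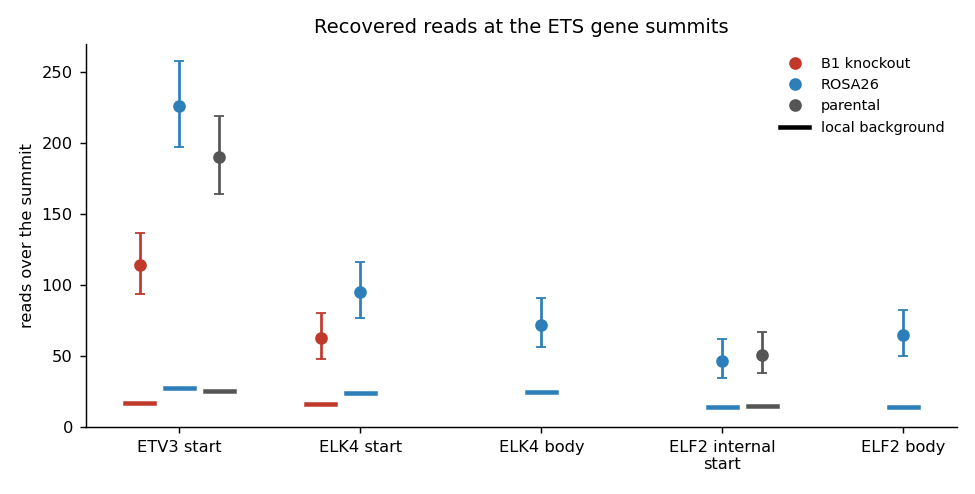
Reads over each summit (points, with 95% exact Poisson intervals) and the local background (short horizontal lines) in reads, by site and library. At ETV3 the summits stand at 114, 226 and 190 reads in the B1 knockout, ROSA26 and parental libraries, and the 6 other peaks range between 47 and 95 reads.

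ELK4 (chromosome 1, 205607943 to 205632011, gene ID 2005), the ternary complex factor, had a peak at its start in the B1 knockout and ROSA26 lists and none in the parental list. The fold was 3.66 in the B1 knockout and 3.84 in the ROSA26 list, and the −log10 p 16.9 and 27.8. These peaks were among the weaker ones of their lists, above 18.9% of the B1 knockout and 31.7% of the ROSA26 peaks. The summit lay 82 bp upstream of the start in the B1 knockout library and 147 bp upstream in the ROSA26 library, with 63 reads (48.4 to 80.6) and 95 reads (76.9 to 116) over local backgrounds of 16.4 and 24.0. In the parental list the nearest summit lay 396.2 kb from the gene, beside DSTYK.

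A region listed in the B1 knockout and ROSA26 libraries and not in the parental library was rare, with 8 of 3936 merged regions (0.203%, 0.0878 to 0.400). Of these 8, the ELK4 start ranked 2 by the −log10 p of the B1 knockout peak and 4 by that of the ROSA26 peak. The regions ranked 1 and 2 by the ROSA26 peak had no protein-coding gene within 1 kb and low ROSA26 folds, 1.73 and 1.58. The region ranked 8 by either peak also had no such gene. When the ROSA26 list was cut into 10 bins of equal size by −log10 p, in the bin that holds the ELK4 start peak (bin 4, counted from the weakest) 6.99% of 386 peaks also had a B1 knockout peak (4.66 to 10.0) and 83.7% a parental peak (79.6 to 87.2), and 4 had the first without the second. Scaled to the parental background, the B1 knockout peak had a −log10 p of 23.7 and the ROSA26 peak 25.7. In the parental list 731 of 3024 peaks (24.2%) were weaker than the first value and 799 (26.4%) weaker than the second. With 1 library per condition, a miss in the parental library cannot be told apart from a difference between the cells.

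The second ELK4 region, listed in ROSA26 alone, had its summit at 205631381, 630 bp downstream of the start. Its fold was 2.84, its −log10 p 14.5 and its summit 72 reads (56.3 to 90.7) over a local background of 24.7. Scaled to the background of the B1 knockout library its −log10 p came to 9.73, a value below which the B1 knockout list holds 40 of its 1660 peaks. Scaled to the parental background it came to 13.6, with 199 of the 3024 parental peaks below it.

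ELK4 is the member with the full GABP-type sequence CCGGAAGT, at 22 to 15 bases before its start. That match holds the shorter CGGAAG and GGAAGT and runs on to GGAAGTGAC. It lies 60 bases from the B1 knockout summit and 125 bases from the ROSA26 summit, on the side of the start. Read 5′ to 3′ on the strand of the match, GGAAGT is followed by the same 3 bases, GAC, at ELK4 and at 2 of the 3 places of ETV3, of which the one at the start is on the strand opposite to that printed.

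ELF2 (chromosome 4, 139057220 to 139177915, gene ID 1998), of the ELF subfamily, had peaks in the controls only, and none of them at the outer of its 2 annotated starts. At the inner start, at 139084224, the ROSA26 summit lay 169 bp and the parental summit 254 bp upstream. The fold was 3.15 in both lists, with a −log10 p of 11.8 in the ROSA26 and 10.6 in the parental list. These are among the weakest peaks listed, above 8.19% of the ROSA26 and 2.68% of the parental peaks. The summits held 47 reads (34.5 to 62.5) and 51 reads (38.0 to 67.1), over local backgrounds equal to the library backgrounds, 14.2 and 15.4. The second ELF2 region, listed in ROSA26 alone, had its summit 1227 bp downstream of the inner start, with a fold of 4.34, a −log10 p of 22.7 and 65 reads (50.2 to 82.8).

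ELF2 had no peak in the B1 knockout list, where the nearest summit lay 1346.3 kb away. Scaled to the B1 knockout background, the ROSA26 and the parental peak of the inner start each had a −log10 p of 7.99, and the downstream ROSA26 peak 14.7. The lowest value in the B1 knockout list was 4.74, and 20 of its 1660 peaks (1.20%) were below 7.99, while 208 (12.5%) were below 14.7. The downstream ROSA26 peak, scaled to the parental background, had a −log10 p of 20.9, and 585 of the 3024 parental peaks (19.3%) were below it. The 300-base window at the inner start of ELF2 holds none of the letters CCGGAAGT, CGGAAG or GGAAGT, which says nothing about bases outside the window. The ROSA26 summit of the inner start lies inside this window. The parental summit and the downstream ROSA26 summit lie outside it, so the letters at them were not read in full.

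**Figure D3:**
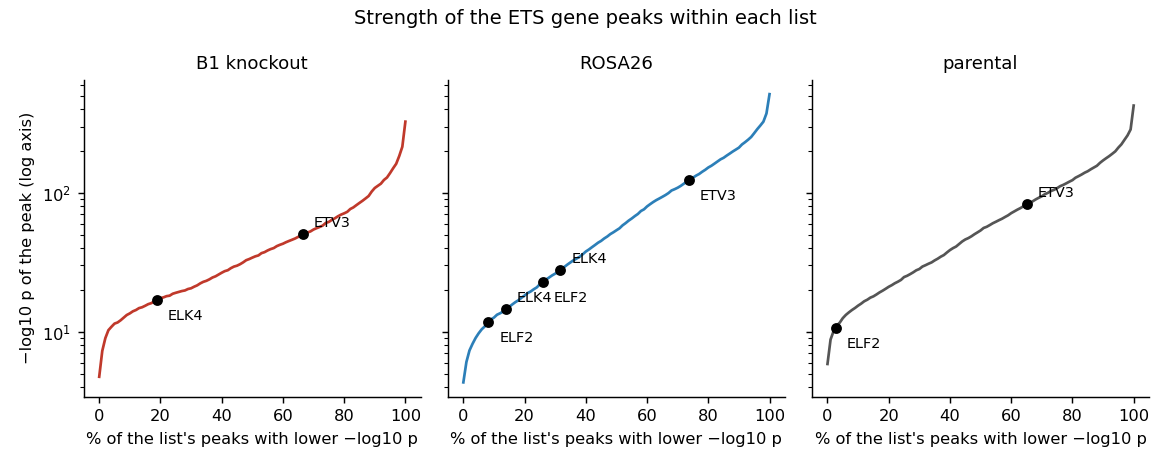
The −log10 p of the peaks (log axis) by the percent of the peaks of the same list that are weaker, with 1 panel per library and the ETS gene peaks as black points. ETV3 stands above 65.2 to 73.6% of each list, and the ELK4 and ELF2 peaks above 2.68 to 31.7%.

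Over the whole ROSA26 list, stronger peaks more often had a peak in another library, and the ETS gene peaks followed this in part. In the 10 bins, the share with a B1 knockout peak was 0.259% in bin 1, 6.99% in bin 4, 88.1% in bin 8 and 100% in bin 10. The inner ELF2 start lies in bin 1, the ELK4 body in bin 2, the ELF2 body in bin 3, the ELK4 start in bin 4 and ETV3 in bin 8. In those 5 bins the shares with a parental peak were 10.4, 22.3, 55.3, 83.7 and 100%. ETV3, with a peak in both other lists, has the more common outcome of its bin. The ELF2 start has a parental peak, as do 10.4% of the peaks of its bin, and the ELK4 start has a B1 knockout peak, as do 6.99% of those of its bin. The ELK4 start has no parental peak, although 83.7% of its bin do, and the ELF2 body has none, although 55.3% of its bin do. The ELK4 body, with no peak in either other list, has the more common outcome of its bin.

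**Figure D4:**
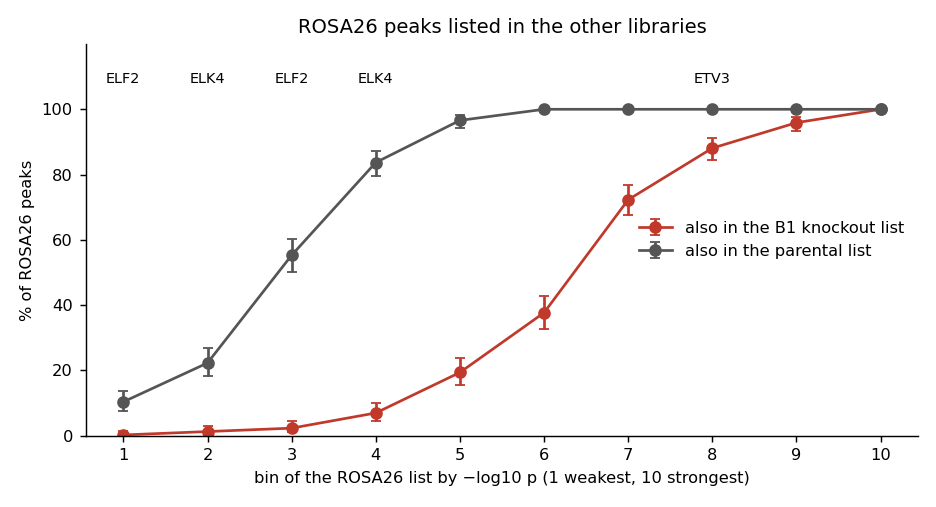
Percent of ROSA26 peaks that overlap a B1 knockout or a parental peak, by bin of the ROSA26 list (10 bins of −log10 p, weakest first), with exact 95% intervals and the names of the ETS genes whose peaks lie in a bin. The share with a B1 knockout peak is 6.99% in the bin of the ELK4 start and 88.1% in that of ETV3.

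ETV3 and ELK4 share a raised local background. At ETV3 the local value was 1.71, 1.93 and 1.66 times the library background in the B1 knockout, ROSA26 and parental libraries. At the ELK4 start it was 1.66 and 1.69 times in the B1 knockout and ROSA26 libraries, and at ELF2 it was 1.00 in ROSA26 and parental. The recovery of reads took the library background first wherever it was a possible solution, as at ELF2. The median over the peaks of chromosome 1 beyond 150 Mb, where both genes lie, was 1.87 (78 peaks), 1.87 (171) and 1.74 (135), against 1.32, 1.35 and 1.28 over all peaks and 1.09, 1.22 and 1.12 on chromosome 4. Fold is a ratio to this value, so the folds of ETV3 and ELK4 refer to a higher base than that of ELF2. Its part in which peaks were listed was not tested.

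The summits of these genes sat near annotated starts. Of the peaks at the ETS genes, 2 of 2 in the B1 knockout, 4 of 5 in the ROSA26 and 2 of 2 in the parental list were within 1 kb of a start of the same gene, where the exception is the ELF2 body peak. Over all peaks, 82.3%, 73.2% and 78.0% of summits lay within 1 kb of a start of any gene in the promoter table.

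For the 7 ETS genes without a peak, the distance to the nearest listed summit is given. The same distance was not taken over other genes without a peak, so it has no background here. The nearest listed summits lay between 131.7 kb (ELK3, ROSA26) and 2150.0 kb (ETS1, B1 knockout and parental) from the gene, and no summit fell just outside the 1 kb limit, the farthest accepted one being 147 bp outside a span. Among the ternary complex factors, ELK1 (chromosome X, 47635520 to 47650604) had its nearest summit at 923.7 kb in the B1 knockout, 152.3 kb in the ROSA26 and 186.2 kb in the parental list. For ELK3 (chromosome 12, 96194375 to 96269824) the distances were 637.4, 131.7 and 251.4 kb. In the ELF subfamily, ELF1 (chromosome 13, 40931919 to 41061386) had its nearest summit 160.7 kb away in the B1 knockout list, at MRPS31, and 142.5 kb away in the ROSA26 and parental lists, near SLC25A15. The nearest to ELF4 (chromosome X, 130063955 to 130111858) was the UTP14A peak, at 157.9, 157.8 and 157.8 kb. ETV6 (chromosome 12, 11649674 to 11895377), a repressor with a span of 245704 bp, the longest of the 10, had its nearest summit at 918.0, 461.7 and 461.7 kb. ETS1 (chromosome 11, 128458765 to 128587558) was 2150.0, 1977.9 and 2150.0 kb and ETS2 (chromosome 21, 38805183 to 38824955) 1537.6 kb in each list from a summit.

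The promoter table holds 16 start windows of 300 bases for 9 of the 10 genes, with none for ETS1. CCGGAAGT was found in 1 of the 16, that of ELK4, and in 4.14% of all 35116 windows. CGGAAG was found in 2 of the 16, those of ETV3 and ELK4, and in 19.5% of all windows, and neither sequence was found at ELF2. GGAAGT was found in 6 of the 16 and in 22.8% of all windows. The 6 belong to 5 of the 9 genes, ETV3, ELK4, ELK3, ELF4 and ETS2, the last 3 of which had no peak. GGAAGTGAC was found in 2 of the 16, at ETV3 and ELK4, and in 1.34% of all windows. GGAAGT and GGAAGTGAC were chosen after the letters of ETV3 and ELK4 were read, so their presence there is no independent observation.

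For comparison, among all windows with a summit inside, CCGGAAGT was found in 46.3% of those with a B1 knockout, 34.3% of those with a ROSA26 and 37.7% of those with a parental summit. For CGGAAG the shares were 87.1, 80.2 and 83.0%, for GGAAGT 73.3, 62.2 and 66.1%, and for GGAAGTGAC 13.0, 9.18 and 10.1%. Within 50 bases of a summit, where such a stretch lay wholly in a start window, CCGGAAGT stood at 37.0% of 1087 B1 knockout, 29.0% of 2105 ROSA26 and 32.1% of 1782 parental summits, and at none of the 2, 3 and 1 summits of the ETS genes that could be read. CGGAAG stood at 75.3, 68.6 and 72.3% of these summits and again at none of those of the ETS genes. GGAAGT stood at 60.4, 50.7 and 54.7%, ETV3 among them in each library.

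Base composition overlapped in part between the ETS genes with a peak and those without, and most windows without a summit were lower. The G and C content of the windows was 71.0% at ETV3, 69.3% at ELK4 and 72.3% at the inner ELF2 start, with 34, 32 and 37 CG pairs. Of the windows with no summit, that of the outer ELK3 start held 83.7% and 48 pairs and 1 of ELF4 76.0% and 43 pairs, above these 3 on both measures. ETV6 held 69.0% and 33 pairs, the outer ELF2 start 77.0% and 32 pairs, and ELK1, with 64.0% and 26 pairs, was below the 3 on both. Also below on both were all ELF1 windows (33.0 to 63.0%, 3 to 26 pairs) and the other ELF4 windows (58.0 to 59.7%, 5 to 7 pairs). The same held for the inner ELK3 start (55.7%, 9 pairs) and the ETS2 windows (58.0% with 20 pairs and 67.3% with 17). The median window held 65.7% and 26 pairs over the 16 of the ETS genes, 58.7% and 14 over all, and 63.3% and 26 over those with a B1 knockout summit.

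**Figure D5:**
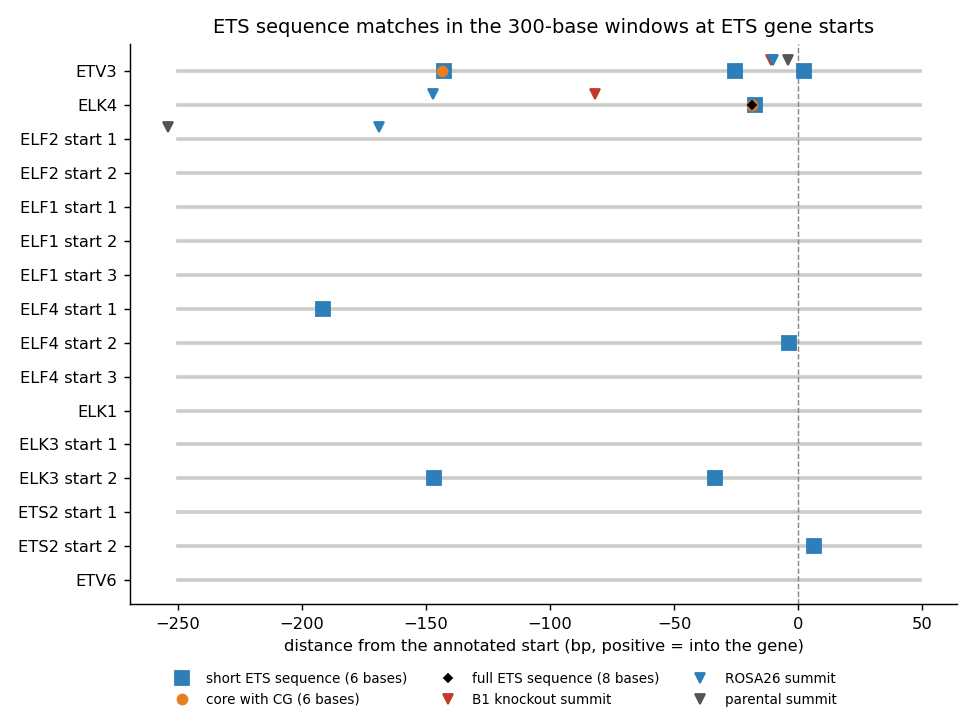
Matches to the ETS sequences in the 16 start windows (lines) of 9 ETS genes by distance from the annotated start in bp, with blue squares for GGAAGT, orange circles for CGGAAG, a black diamond on top of both for CCGGAAGT at ELK4, and triangles for summits by library. The ETV3 summits lie between 2 squares, where the B1 knockout and ROSA26 triangles, 1 bp apart, overlap, and the ELK4 and ELF2 summits lie away from a match within these windows.

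In the wider ETS family, 4 of 28 genes had a B1 knockout, 5 a ROSA26 and 4 a parental peak, and 23 had none, beside the 10.2, 20.8 and 17.2% of all protein-coding genes given above. Beside ETV3, ELK4 and ELF2 these were GABPA itself, with folds of 12.5, 14.3 and 13.2 at a peak that is also near the end of ATP5PF, and ETV4, an activator of the PEA3 subfamily. ETV4 (chromosome 17, 43527846 to 43546340) had folds of 3.72, 2.90 and 2.99 in the B1 knockout, ROSA26 and parental lists, above 8.49, 13.6 and 4.20% of the peaks of each list, and its B1 knockout and parental summits were also within 1 kb of an end of DHX8. By −log10 p the GABPA peak was above 87.8, 87.7 and 84.6% of each list, ahead of ETV3. Apart from the 10 genes, 2 of 18 family members carried a peak in any list, GABPA and ETV4, beside 21.1% of all protein-coding genes.

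Partners of ETS proteins and genes of the ERK pathway were marked in part. Of 32 such genes, 2 had a B1 knockout, 6 a ROSA26 and 4 a parental peak, and the background is the same 10.2, 20.8 and 17.2% of genes. DAXX (chromosome 6, 33318558 to 33322959), a nuclear partner of ETS1, had folds of 5.22, 11.8 and 8.46, with an end of SMIM40 within 1 kb of each summit. SIN3A (chromosome 15, 75369379 to 75455815), a corepressor that works with ETS repressors, had folds of 7.45, 11.8 and 11.5 at a peak 799, 753 and 769 bp beyond its far end, which is also near the end of MAN2C1. A weaker SIN3A peak, 1780 and 1856 bp downstream of its start, was listed in the ROSA26 (3.51) and parental (3.65) libraries. EP300 (chromosome 22, 41092592 to 41180077), an acetyltransferase recruited by ETS activators, had folds of 5.78 in the ROSA26 and 4.37 in the parental list, with summits 952 and 929 bp upstream of its start. In ROSA26 alone, MAP2K1 (chromosome 15, 66386912 to 66491544), an ERK kinase gene close to TIPIN, had a fold of 4.31, and MRTFA (chromosome 22, 40410289 to 40636719), a cofactor of SRF, a fold of 3.68. No listed peak was found for SRF, BRAF or MAPK3.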

How the data were processed

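GABPA ChIP-seq peak lists of 3 A-375 libraries were used, 1 per condition, and the 3 inputs were not analysed here. The submitters' processing notes name Bowtie2, SAMtools, MACS2 and the hg38 build. Versions, thresholds, duplicate handling and input use are not stated in the labels or files. Per peak, the deposited lists give the fold enrichment ratio, the −log10 p-value and q-value, and a score equal to 10 times the −log10 q-value with decimals dropped. Fold and −log10 p are the authors' values and were used within their own list. The scaled −log10 p values were computed here and set against the values of another list.

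Summit reads and local background were recovered by inverting the MACS2 fold and Poisson p-value, a step checked on simulated peaks. All 8541 peaks gave reads whole within 0.1 after a library scale factor (0.924 B1 knockout, 1 ROSA26, 0.860 parental). Where several solutions existed, those with a local background equal to the library background were taken first. Among these, or where there were none, the one nearest a whole number of reads was taken. This order favours a local background equal to the library background, the value given for ELF2. Closeness to whole reads is no check on the counts. For scaling, pileup and local background were multiplied by the ratio of library backgrounds, each taken after the library scale factor (9.11 B1 knockout, 14.2 ROSA26, 13.3 parental). The library depth itself is unknown.

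Regions join peaks that overlap by 1 bp. Gene spans and promoter windows (250 bases before to 50 after a start) came from RefSeq tables of GRCh38.p14, all 10 genes and all listed genes matched by symbol, and no genome was used, so letters at summits were read only where a window lay wholly inside a promoter window. Member genes, the 28 ETS family genes and the 32 partner and ERK genes were chosen with earlier results of these data known; the genes named are the 10, the list genes with a peak, and neighbours within 1 kb, apart from a few list genes and neighbours that are counted but not reported here by name. Python 3.11.15, SciPy 1.17.1 and pandas 2.3.3 were used.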

Additional observations from a re-analysis of the deposited data

How the results depend on the processing

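No paired analysis was possible because each condition has 1 library and no result comes from a test. Over 20 counts, 39 of 69 alternatives stayed within 1.5 times the reported value; the others follow. Counts are given for the B1 knockout, ROSA26 and parental lists in that order. With summits inside the span only, genes with a peak numbered 0 and 1 of the 10 in the B1 knockout and parental lists, peaks 0, 3 and 1, family genes 2 in the B1 knockout list, and partner and ERK genes 0, 2 and 2. Requiring a −log10 q of at least 10 left 1 member gene, 1 member peak, 1 start peak and 2 family genes (ETV3 and GABPA) in the parental list. With equal lists of 1660 peaks, ROSA26 and parental each kept 1 member gene with 1 peak (ETV3), 2 family genes and 2 partner genes, and 0 ROSA26-only regions remained, while the B1 knockout list is whole. Of the member regions in both controls, 1 of 1 in place of 1 of 2 had a B1 knockout peak with the −log10 q limit and with equal lists. Within 200 bp of a start, 1 parental peak remained. CCGGAAGT was found in 1 readable window of 100 bases on each side of a summit (ELK4, B1 knockout) against 0 within 50, and GGAAGT and GGAAGTGAC, added after the data were seen, in 1 window (ETV3) in each library. The overlap rules and the 5 kb distance changed no count. The library depth is unknown, and the ELK4 and ELF2 summits hold 47 to 95 reads.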
